A study of Homo sapiens with 6 samples.

Results

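The sites described here are γH2AX peaks that UNG knockout (KO) cells showed at the same place after cisplatin and after pemetrexed. They were chosen by the called positions of 2 lists: a KO cisplatin peak on chromosomes 1 to 22 was kept if it overlapped a KO pemetrexed peak by at least 1 bp. There were 334 such shared sites among 4532 KO cisplatin peaks on these chromosomes, 7.37% of the list (95% exact binomial interval 6.63 to 8.17%). They lay on 329 of 5270 KO pemetrexed peaks, 6.24% of that list (5.60 to 6.93%). The overlap is what chose the sites, so these shares describe the rule and test nothing.

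DLD1, a human cell line established from a colorectal cancer, was used with UNG intact (UNG+/+, wild type, WT) or lost (UNG-/-, KO). Both genotypes received no drug, pemetrexed or cisplatin, and chromatin was precipitated with an antibody to γH2AX and sequenced, 1 library for each of 6 groups. Peak lists of the 4 drug-treated libraries were used, and the sites come from the KO pair: UNG-/- DLD1 cells given pemetrexed and UNG-/- DLD1 cells given cisplatin. The sources used here do not give doses, times or whether the knockout is 1 clone. With 1 library per group, a drug's effect and chance differences from library to library cannot be told apart. All intervals below are 95% intervals for counting error between peaks, and neighbouring peaks are not independent.

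When DNA breaks, kinases of the damage response phosphorylate H2AX in the chromatin around the break, and the mark can spread far beyond the break itself. UNG cuts uracil out of DNA and so opens base excision repair. Pemetrexed, an antifolate, blocks thymidylate synthesis and raises the supply of uracil for DNA synthesis, while cisplatin crosslinks purine bases, a lesion handled mainly by other repair routes. Positions are given in hg18 as the lists hold them. The lists hold no gene names and no hg18 annotation or sequence was used here, so no site is placed in a gene.

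A typical shared site was a cisplatin peak lying within a wider pemetrexed peak. Pemetrexed peaks were also the wider over the whole KO lists, with a median of 1172 bp against 813 bp for cisplatin. Overlap also favours wide partners, so the proportions below are in part set by the lists and the rule. In 180 of the 334 (53.9%, 48.4 to 59.3%) the cisplatin peak lay wholly inside its pemetrexed partner, in 146 the edges were offset and in 8 the cisplatin peak enclosed the partner. The partner was the wider of the pair in 296 (88.6%), and the median ratio of partner to cisplatin peak width over all 334 was 1.72. The median overlap was 773 bp (interquartile range 607 to 939), which covered a median 100% of the cisplatin peak and 45.0% of the pemetrexed peak. Most sites therefore did not rest on touching edges: 281 (84.1%, 79.8 to 87.9%) had the centre of the cisplatin peak inside the partner. The centres of the paired peaks lay a median 357 bp apart (290 to 412), and over 1 kb apart at 57 sites.

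Within the partner, cisplatin peaks sat more often near the middle than near an edge. Of the 281 with their centre inside, 204 (72.6%, 67.0 to 77.7%) were in the middle 50% of the partner's width. Under partners of less than 2 kb this share was 80.1% (73.2 to 85.9%), and under partners of 2 kb or more it was 61.7% (52.2 to 70.6%). The widths of the paired peaks rose together only loosely, with a Spearman correlation of 0.33 over 334 pairs, which share their libraries and are given as a description.

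**Figure D1:**
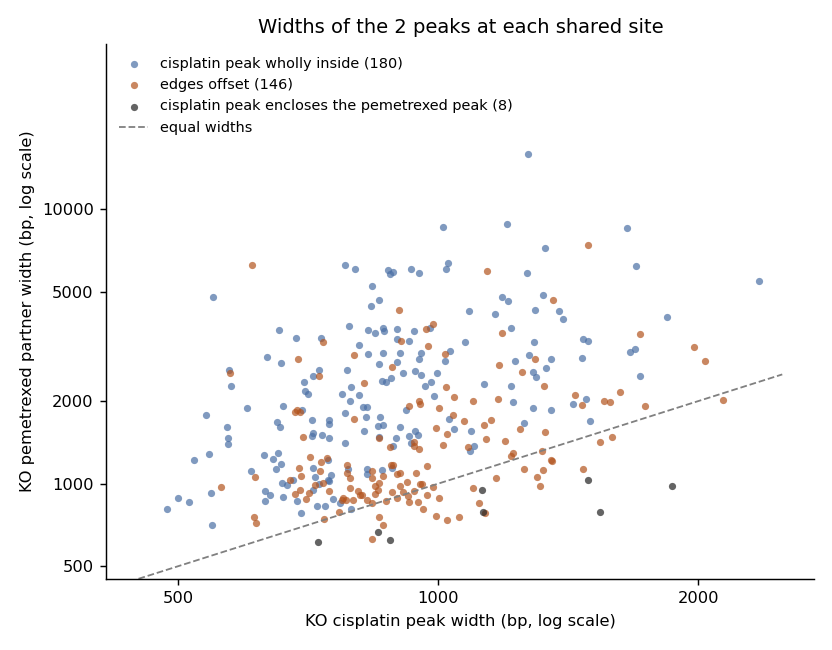
Width of the KO cisplatin peak (x axis, bp, log scale) against the width of its KO pemetrexed partner (y axis, bp, log scale) at the 334 shared sites; colours give how the peaks lie and the dashed line marks equal widths. Of the points, 296 lie above the line, and the 8 enclosing peaks lie below it.

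The pairing was almost always 1 to 1. Of the sites, 329 met 1 pemetrexed peak and 5 met 2, and 10 pemetrexed peaks met 2 sites each. The widest pemetrexed peak with 2 sites spanned 6286 bp on chromosome 9 (129530575 to 129536861), with cisplatin peaks of 779 and 609 bp. A 3700 bp pemetrexed peak on chromosome 19 (1870944 to 1874644) held cisplatin peaks of 1214 and 862 bp. One of 3658 bp on chromosome 3 (52500147 to 52503805) held a peak of 897 bp and shared 102 bp with one of 968 bp. The next in width, 2849 bp on chromosome 17 (17046610 to 17049459), held a peak of 1350 bp and shared 42 bp with one of 689 bp. The fifth, 2471 bp on chromosome 3 (49133798 to 49136269), met peaks of 728 and 716 bp. At these 5 places 1 broad pemetrexed peak met 2 separate, narrower cisplatin peaks. The narrowest of the 10, 755 bp on chromosome 16 (30103502 to 30104257), was narrower than both of its cisplatin peaks (855 and 1058 bp).

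The 5 widest shared cisplatin peaks differed in how much of them was shared. The widest, 2347 bp on chromosome 11 (982185 to 984532), lay wholly inside a 5478 bp pemetrexed peak. One of 2133 bp on chromosome 9 (129711613 to 129713746) shared 2012 bp with a partner of 2020 bp, so the peaks nearly coincided. One of 2035 bp on chromosome 16 (66508053 to 66510088) shared 1005 bp, and one of 1976 bp on chromosome 4 (2768593 to 2770569) shared only 184 bp, 9.31% of its width. The last, 1865 bp on chromosome 11 (64311720 to 64313585), enclosed a pemetrexed peak of 977 bp.

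The broadest pemetrexed domains met by cisplatin peaks showed the opposite proportion. A 15871 bp domain on chromosome 17 (76714584 to 76730455) held a cisplatin peak of 1270 bp, 8.002% of its width. The 8821 bp domain of chromosome 14 (104750832 to 104759653) held a peak of 1200 bp. Chromosome 19 had 2 of the domains: 1 of 8631 bp (18472272 to 18480903) held a peak of 1012 bp, and 1 of 8566 bp (52182671 to 52191237) held a peak of 1655 bp. The fifth, 7396 bp on chromosome 9 (129672196 to 129679592), shared 1481 bp with a peak of 1492 bp that ran 11 bp past its edge. In each of these 5, the called cisplatin peak covered a small stretch of the called pemetrexed domain, which choosing the widest partners makes likely. The lists hold no heights, so signal within and beyond the called peaks is unknown.

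At the limit of the rule, the fewest shared bases were 21 at a site on chromosome 8 (144594985 to 144595723), then 25 at a site on chromosome 11 (72709471 to 72710376) and 42 at a site on chromosome 17 (17045963 to 17046652). Just outside it, 3 cisplatin peaks missed a pemetrexed peak: a peak on chromosome 16 (311765 to 312611) by 9 bp, a peak on chromosome 17 (71337435 to 71338568) by 25 bp and another on chromosome 16 (84173001 to 84174049) by 44 bp. In all, 113 of the 4198 other cisplatin peaks (2.69%) were within 1 kb of a pemetrexed peak. That is a small share of the others but not a small number beside the 334 sites, so the limit is no clean boundary. The median gap of the others was about 187600 bp.

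Shared cisplatin peaks were wider than the rest. Their median width was 885.5 bp (860 to 920, interquartile range 746 to 1098), against 808 bp (800 to 815, 686 to 945) for the other 4198. Of the shared peaks, 109 (32.6%, 27.6 to 38.0%) were 1 kb or more, against 772 of the others (18.4%, 17.2 to 19.6%) and 19.4% of the whole list. The widest KO cisplatin peaks were not among them, since the shared peaks ended at 2347 bp and the others reached 7807 bp. Peaks of 2 kb or more were 3 of the shared peaks (0.898%, 0.186 to 2.60%) and 37 of the others (0.881%, 0.621 to 1.21%).

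Wider peaks meet another list more easily, so part of this contrast is set by the rule. The share of cisplatin peaks that were shared rose over 4 width classes of near equal size, from 4.23% (3.13 to 5.57%) at 370 to 690 bp and 6.17% (4.84 to 7.74%) at 691 to 813 bp to 7.96% (6.45 to 9.70%) at 814 to 952 bp and 11.1% (9.35 to 13.1%) above. Counting a peak by its centre removes the help that its own width gives. By centre the shares were 3.96, 5.47, 6.73 and 8.65% (7.08 to 10.4% in the widest class), in the same order with a smaller slope. On chromosomes 16, 17, 19 and 22 the widest class did not lead by either count: it had 17.2% against 19.6% in the class below it by any overlap, and 12.6% (9.34 to 16.6%) against 17.7% (13.3 to 22.9%) by centre, with intervals that overlap.

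The pemetrexed partners were also wider than the other pemetrexed peaks. Their median was 1590 bp (1468 to 1743), against 1151 bp (1128 to 1181) for the 4941 that no cisplatin peak met. Peaks of 2 kb or more were 37.7% of the partners (32.4 to 43.2%), 21.7% of the rest and 22.7% of all KO pemetrexed peaks. A wide peak offers more bases to meet, so the centres of cisplatin peaks were also counted per Mb of pemetrexed peak. That density was 34.2 per Mb (26.0 to 44.3) in pemetrexed peaks under 1 kb, 37.8 (31.0 to 45.6) at 1 to 2 kb and 32.3 (26.1 to 39.6) at 2 to 5 kb, with intervals that overlap. In the 201 domains of 5 kb or more it was 14.04 per Mb (8.69 to 21.5), below the intervals of the 3 narrower classes. Cisplatin peaks were thus sparser per base in the broadest pemetrexed domains, although 9.95% of these domains (6.18 to 14.9%) met one against 3.88% (3.08 to 4.82%) of the narrowest peaks. WT cisplatin centres, which the rule did not use, numbered 8 in the broadest domains, 5.35 per Mb (2.31 to 10.5), against 7.09 to 8.05 per Mb in the other classes, with intervals that overlap.

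**Figure D2:**
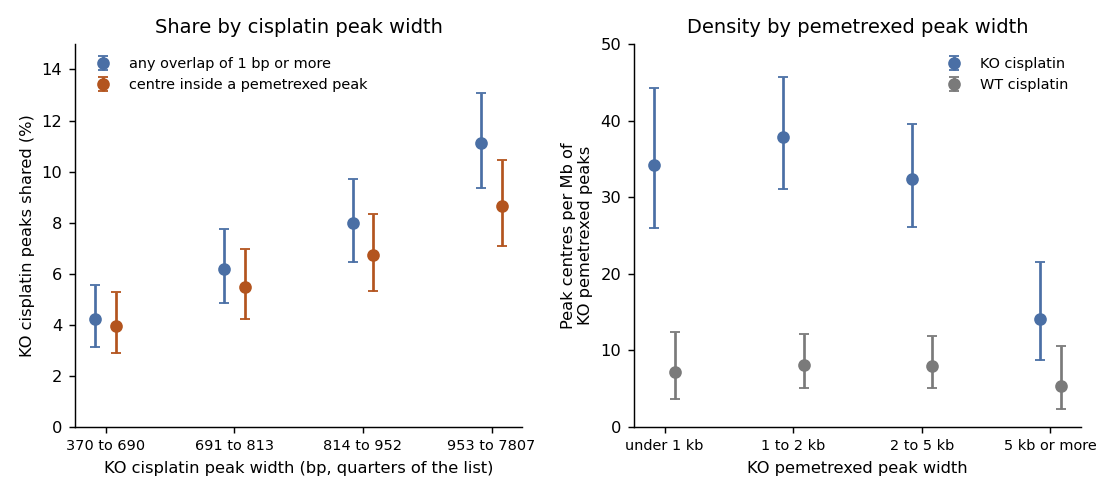
Left, percent of KO cisplatin peaks that were shared (y axis) in 4 classes of their width (x axis, bp), by any overlap or by centre; right, peak centres per Mb of KO pemetrexed peak (y axis) by the width of that peak (x axis). Bars are 95% exact binomial (left) and exact Poisson (right) intervals; the share rises from 4.23 to 11.1%, and the KO density falls to 14.04 per Mb in domains of 5 kb or more.

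The density of cisplatin peaks was then followed outward from the edges of the pemetrexed peaks. The 281 KO centres inside are the sites themselves, so the KO values describe the overlap that chose them. KO cisplatin centres numbered 31.4 per Mb (27.8 to 35.3) inside pemetrexed peaks. In the first 1 kb outside them the density was 11.8 per Mb (9.68 to 14.1), and from 1 to 5 kb it was 10.1 (9.02 to 11.3). It then declined slowly, to 6.87 at 5 to 10 kb, 5.53 at 10 to 50 kb, 4.32 at 50 to 100 kb, 2.02 from 100 kb to 1 Mb and 0.607 (0.572 to 0.645) farther away. The density inside was 5.68 times that at 10 to 50 kb. Sites whose centre fell outside their partner are counted in the bands outside it.

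Both chromosome groups had the same order. On chromosomes 16, 17, 19 and 22 the density was 35.3 per Mb inside (29.8 to 41.5) and 7.79 at 10 to 50 kb (6.93 to 8.71). On the other 18 it was 28.1 inside (23.5 to 33.2) and 4.62 at 10 to 50 kb (4.20 to 5.07). The inside densities of the groups had overlapping intervals, while their flanks at 10 to 50 kb did not.

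The same profile was drawn with the WT lists, which had no part in choosing the sites. WT cisplatin centres numbered 7.37 per Mb (5.70 to 9.38) inside KO pemetrexed peaks, 3.25 (2.21 to 4.62) in the first 1 kb outside and 2.16 (1.92 to 2.42) at 10 to 50 kb, a ratio of 3.41 from inside to 10 to 50 kb. WT cells after cisplatin thus also had their highest density of peak centres inside the peaks called in KO cells after pemetrexed. Whether those peaks are also present without the drug was not tested. The inside density was 10.2 (7.37 to 13.8) on chromosomes 16, 17, 19 and 22 and 4.95 (3.17 to 7.37) on the other 18, where it overlapped the 2.91 (1.66 to 4.72) of the first 1 kb. WT pemetrexed centres were few: 13 inside, 1.45 per Mb (0.773 to 2.48), against 0.626 (0.5002 to 0.774) at 10 to 50 kb, with intervals that barely overlap.

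**Figure D3:**
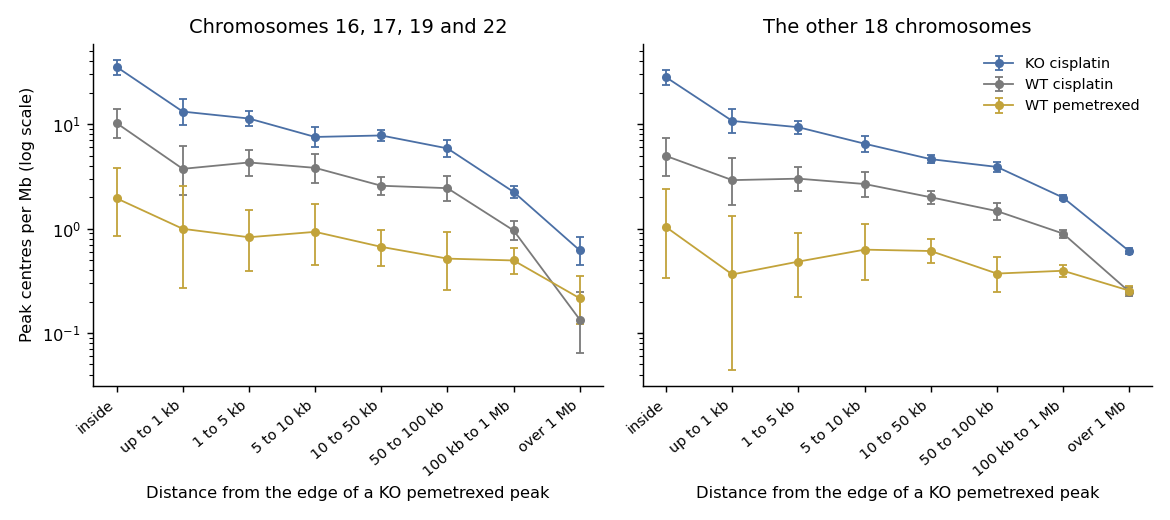
Peak centres per Mb (y axis, log scale) inside KO pemetrexed peaks and in bands of distance from their edges (x axis), for the KO cisplatin list and both WT lists in 2 groups of chromosomes. Bars are 95% exact Poisson intervals; KO cisplatin falls from 35.3 and 28.1 per Mb inside to 7.79 and 4.62 at 10 to 50 kb.

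Shared sites were gathered on chromosomes 16, 17, 19 and 22. These held 168 of the 334 sites (50.3%, 44.8 to 55.8%), against 944 of the other cisplatin peaks (22.5%, 21.2 to 23.8%) and 24.5% of the whole list. Chromosome 19 had the most sites, 56, which were 16.4% of its cisplatin peaks (12.7 to 20.8%). Chromosome 16 had 43 (15.8%, 11.6 to 20.6%), chromosome 17 had 40 (13.3%, 9.67 to 17.7%) and chromosome 22 had 29 (14.7%, 10.1 to 20.5%). The intervals of these 4 chromosomes overlap, so no order among them can be read.

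Other chromosomes ranged widely. Chromosome 12 held 23 sites (10.6% of its cisplatin peaks, 6.81 to 15.4%) and chromosome 9 held 20 (9.13%, 5.67 to 13.8%). Chromosome 2, with 315 cisplatin peaks, held 5 (1.59%, 0.517 to 3.67%), and chromosome 10, with 203, held 4 (1.97%, 0.539 to 4.97%). Chromosomes 13 and 18 held none: 0 of 75 allows a share of up to 4% and 0 of 74 up to 4.05% when the limit is set at 3 peaks, and the exact upper bounds are 4.80% and 4.86%. These bounds lie below the intervals of chromosomes 9, 12, 16, 17, 19 and 22 and within the intervals of chromosomes 1 and 11, among others.

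The share followed how much of a chromosome pemetrexed peaks covered, which the rule makes likely. Over the 22 chromosomes the Spearman correlation between the shared percentage and the percentage of the span covered was 0.89, given as a description of points that come from the same lists. Coverage ran from 0.041% on chromosome 18 to 1.96% on chromosome 19. Chromosome 12 stood high for its coverage of 0.262%, near that of chromosome 9 (0.297%) and below those of chromosomes 1 (0.319%, 5.91% shared) and 21 (0.324%, 4.29% shared). Seen from the pemetrexed list the chromosomes were closer: 7.36% (6.32 to 8.51%) of pemetrexed peaks on chromosomes 16, 17, 19 and 22 met a site, against 5.39% (4.61 to 6.26%) on the other 18. Chromosome 12 gave the highest share there, 23 of 222 (10.4%, 6.68 to 15.1%), with an interval that overlaps those of chromosomes 22 (8.24%) and 16 (7.95%).

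**Figure D4:**
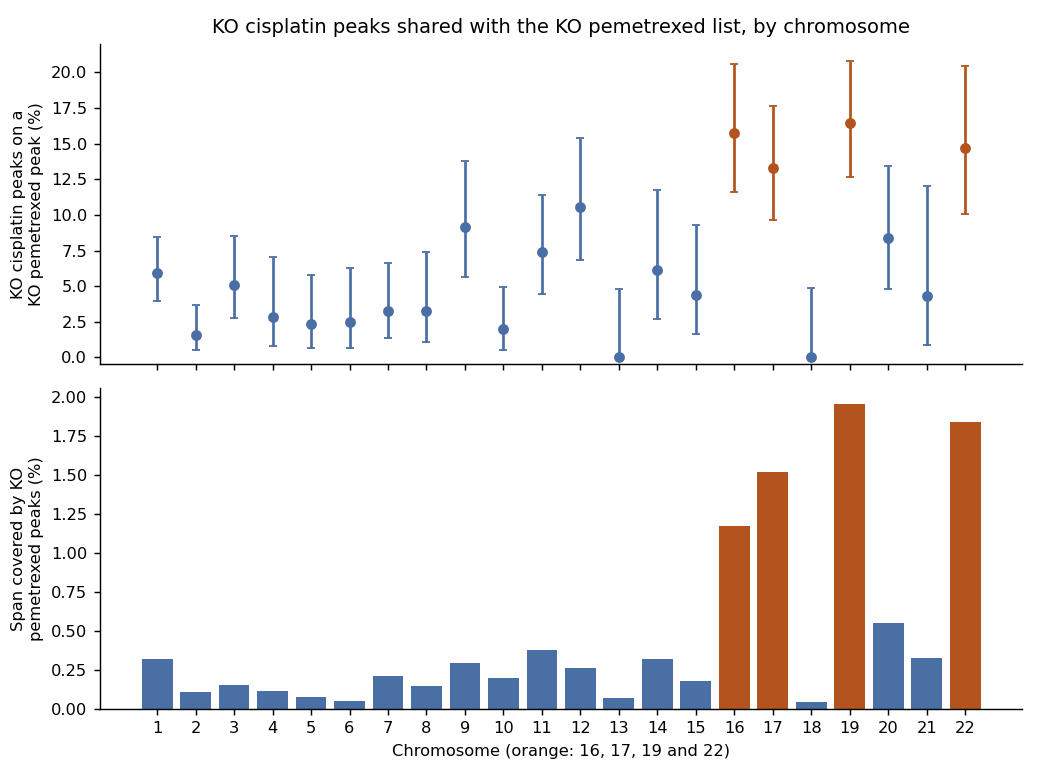
Top, percent of KO cisplatin peaks that were shared on each chromosome (y axis) with 95% exact binomial intervals; bottom, percent of the chromosome's span covered by KO pemetrexed peaks (y axis). Chromosomes 16, 17, 19 and 22 (orange) have the highest values in both panels, from 13.3 to 16.4% at the top, and chromosomes 13 and 18 have 0.

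Shared sites lay near chromosome ends more often than the other cisplatin peaks. An end was taken as the 5 Mb next to the outermost position that any list covered, at the last position alone on the acrocentric chromosomes. In these ends were 138 sites (41.3%, 36.0 to 46.8%), against 706 others (16.8%, 15.7 to 18.0%) and 18.6% of the whole list. A site needs a pemetrexed peak, and these were also frequent in the ends, so part of this contrast is set by the rule. Both ends contributed, with 68 sites toward the first position and 70 toward the last. The sites were unevenly spread over the ends: 20 of the 38 ends with a KO cisplatin peak had one, and 4 ends held 76. The first 5 Mb of chromosome 19 held 28 sites, 38.9% of its 72 cisplatin peaks (27.6 to 51.1%). The first 5 Mb of chromosome 16 held 21 (30.0% of 70) and the last 5 Mb of chromosome 17 held 19 (38.8% of 49). The last 5 Mb of chromosome 9 held 8 (22.2% of 36), tied with the last 5 Mb of chromosome 16, which also held 8 (27.6% of 29).

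The share was highest at the ends of the chromosomes rich in sites. At the ends of chromosomes 16, 17, 19 and 22, 28.9% of cisplatin peaks were shared (88 of 304, 23.9 to 34.4%). In the interiors of these chromosomes the share was 9.90% (7.93 to 12.2%), and at the ends of the other 18 it was 9.26% (6.95 to 12.02%). In the interiors of the other 18 it was 4.03% (116 of 2880, 3.34 to 4.81%). The ends also held many pemetrexed peaks, 1000 of the 2283 on the first group and 946 of the 2987 on the second. Of the sites, 88 of 168 (52.4%) and 50 of 166 (30.1%) lay there. The rule thus makes a higher share at ends likely.

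In windows of 1 Mb, 169 held a site, out of 1522 with any KO cisplatin peak, and 41 of them held 50% of the sites. A window with 1 site was the usual case (92 of 169). The fullest, on chromosome 19 (1000001 to 2000000), held 12 sites among 20 KO cisplatin and 97 KO pemetrexed peaks, with 9 WT cisplatin and 0 WT pemetrexed peaks. A window on chromosome 17 (77000001 to 78000000) held 9 of 18, the first Mb of chromosome 16 (1 to 1000000) held 8 of 16 and 4000001 to 5000000 on chromosome 19 held 8 of 15. The fifth, 49000001 to 50000000 on chromosome 3, is an interior window, with 6 of 14 cisplatin peaks shared.

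Sites lay close to other KO cisplatin peaks. The nearest other KO cisplatin peak was a median 26858 bp away (20568 to 32934), against 81167 bp (75195 to 87897) for the unshared peaks. Another peak within 100 kb was found for 284 sites (85.0%, 80.7 to 88.7%), 54.7% of the others (53.2 to 56.2%) and 56.9% of the whole list. Within 10 kb the shares were 32.3% (27.3 to 37.6%), 14.4% (13.4 to 15.5%) and 15.7%. The closeness was not only among the sites themselves: 258 sites (77.2%, 72.4 to 81.6%) had an unshared KO cisplatin peak within 100 kb, against 53.1% (51.6 to 54.7%) of the unshared peaks.

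The contrast in spacing held within each chromosome group. On chromosomes 16, 17, 19 and 22, 90.5% of sites (85.0 to 94.5%) had another peak within 100 kb, against 73.2% (70.3 to 76.0%) of the others there. On the other 18 chromosomes the shares were 79.5% (72.6 to 85.4%) and 49.3% (47.6 to 51.1%).

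Sites also lay near one another. Another shared site within 100 kb was found for 163 (48.8%, 43.3 to 54.3%), and joining sites within 100 kb left 234 regions, of which 171 were single sites. The region with the most sites held 9 in 115607 bp of chromosome 19 (1769672 to 1885279). A run of 5 sites lay in 43123 bp of chromosome 3 (49133629 to 49176752), and another of 5 in 179338 bp of chromosome 9 (129534408 to 129713746). These regions were named after their values had been seen. At the other extreme, the site farthest from any other KO cisplatin peak was on chromosome 7 (76984356 to 76985260), 1173165 bp from it. The next were on chromosome 11 (3023255 to 3024752), at 638510 bp, and on chromosome 20 (29695740 to 29696487), at 407326 bp. These 3 isolated sites still shared 70.1, 88.3 and 51.1% of the pemetrexed peak's width.

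The unshared peaks were then split by their gap to the nearest pemetrexed peak. There were 587 with a gap of up to 10 kb and 3611 farther away. In spacing the near misses were close to the shared sites: 81.9% (78.6 to 85.0%) had another KO cisplatin peak within 100 kb, against 85.0% (80.7 to 88.7%) of the sites and 50.3% (48.6 to 51.9%) of the far peaks. Near misses were also near the sites in place, with 33.2% (29.4 to 37.2%) within 5 Mb of an end and 43.4% (39.4 to 47.6%) on chromosomes 16, 17, 19 and 22, against 41.3 and 50.3% of the sites. Their intervals overlap those of the sites on both measures and lie apart from those of the far peaks (14.2 and 19.1%). In width they fell between, with a median of 840 bp (823 to 858) against 885.5 bp (860 to 920) for the sites and 801 bp (793 to 810) for the far peaks. The width intervals of sites and near misses are 2 bp apart, overlap for sites counted by centre (874 bp, 851 to 904) and follow in part from the rule, which favours wide peaks.

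The WT lists give the readout that the rule did not use. A WT cisplatin peak overlapped 8 of the 334 sites (2.40%, 1.04 to 4.66%), 24 of the 4198 other KO cisplatin peaks (0.572%, 0.367 to 0.849%) and 0.706% of the whole list. The intervals of sites and others are separate over all chromosomes, but the sites' share rests on 8 peaks and the intervals overlap within each chromosome group. It was 2.98% (0.973 to 6.81%) of sites against 0.953% (0.437 to 1.80%) of others on chromosomes 16, 17, 19 and 22, and 1.81% (0.374 to 5.19%) against 0.461% (0.258 to 0.759%) on the other 18. Sites are also wider, and wide peaks meet a list more easily. With each group split at the median width, 1 to 3 sites per class met a WT cisplatin peak. The sites' point value was higher in each class, with intervals that overlap. Near misses stood at 5 of 587 (0.852%, 0.277 to 1.98%), an interval that overlaps that of the sites. A WT pemetrexed peak overlapped 1 site (0.299%, 0.00758 to 1.66%), 10 others (0.238%, 0.114 to 0.438%) and 0.243% of the whole list, which shows no difference at this number of peaks. Overlap with WT was rare everywhere: 8 of 1803 WT cisplatin peaks (0.444%) lay on a site.

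Seen from the pemetrexed side the contrast was smaller. A WT cisplatin peak overlapped 9 of the 329 partners (2.74%, 1.26 to 5.13%) and 63 of the 4941 other pemetrexed peaks (1.28%, 0.981 to 1.63%), with intervals that overlap. Of the 72 WT cisplatin peaks on a KO pemetrexed peak, 9 (12.5%, 5.88 to 22.4%) lay on a partner, while partners hold 7.85% of the pemetrexed bases, a value within that interval.

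Neighbourhoods with WT peaks were common around the sites. A WT cisplatin peak lay within 100 kb of 202 sites (60.5%, 55.0 to 65.8%), 49.6% of near misses (45.5 to 53.7%), 25.1% of far peaks (23.7 to 26.5%) and 30.8% of the whole list. Within 10 kb the near misses had the higher value, 11.8% (9.26 to 14.6%) against 8.08% (5.39 to 11.5%) of sites, with intervals that overlap. On chromosomes 16, 17, 19 and 22 the shares were 66.7% (59.0 to 73.7%) of sites and 42.7% (39.5 to 45.9%) of all unshared peaks, and on the other 18 they were 54.2% (46.3 to 62.0%) and 24.4% (22.9 to 25.9%). For WT pemetrexed peaks the spread was smaller, with 15.6% of sites (11.9 to 19.9%), 14.5% of near misses (11.7 to 17.6%), 10.8% of far peaks (9.78 to 11.8%) and 11.6% of the whole list. The intervals of sites and far peaks are separate by a narrow margin. On chromosomes 16, 17, 19 and 22 a WT pemetrexed peak was as common near far peaks (15.5%, 12.9 to 18.5%) as near sites (15.5%, 10.4 to 21.8%). The surroundings of the sites were thus richer than those of far peaks in WT cisplatin peaks.

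**Figure D5:**
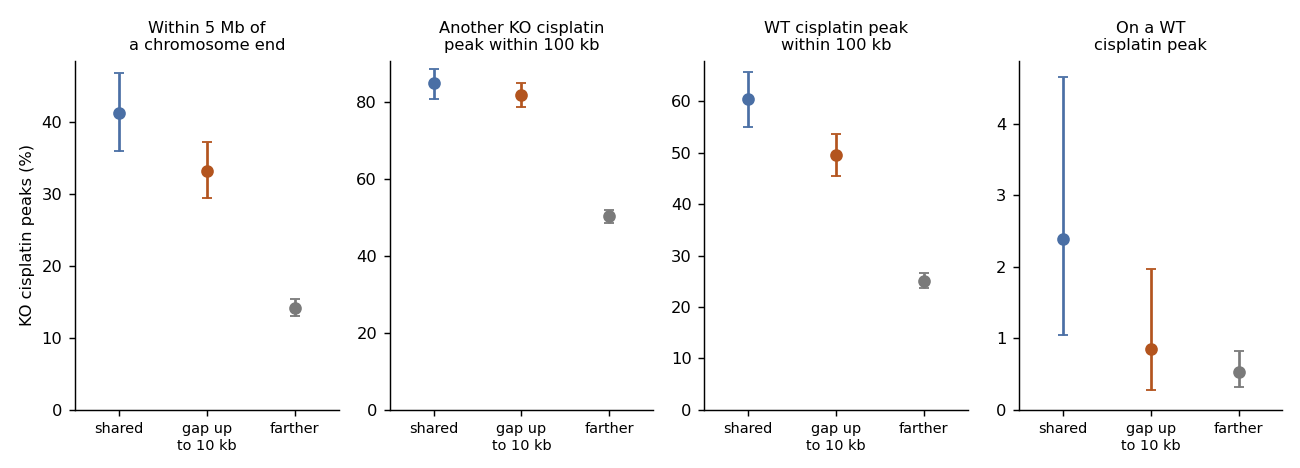
Percent of KO cisplatin peaks (y axis) within 5 Mb of a chromosome end, with another KO cisplatin peak within 100 kb, with a WT cisplatin peak within 100 kb and on a WT cisplatin peak, for shared sites, unshared peaks with a gap of up to 10 kb and farther peaks. Bars are 95% exact binomial intervals and each panel has its own scale; near misses (81.9%) lie near the sites (85.0%) for spacing, and farther peaks are at 50.3%.

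The 9 sites that a WT peak also overlapped are places marked in 3 of the 4 lists: both KO lists and a WT list. The most complete was on chromosome 16 (87931694 to 87932338), where a 644 bp KO cisplatin peak lay wholly inside both a 702 bp WT cisplatin peak and a 1232 bp KO pemetrexed peak. On chromosome 17 (71097763 to 71098701), a 938 bp peak lay wholly inside a 1360 bp WT cisplatin peak, and 729 bp were common to all 3. On chromosome 9 (138916111 to 138916901), 726 bp were common to peaks of 790, 984 and 963 bp. At these 3 places most of the KO cisplatin peak was common to the 3 lists, as it was at several of the sites below.

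Of the further sites with a WT cisplatin peak, 2 on chromosome 19 had 696 of 1228 bp (54117252 to 54118480) and 585 of 732 bp (11467450 to 11468182) common to the 3 lists. On chromosome 1, 1 site had 581 of 779 bp (1679267 to 1680046). On chromosome 9 (129678111 to 129679603) 290 bp were common, inside the 7396 bp domain described above. On chromosome 22 (44006560 to 44008293) 87 bp were common, so there the KO and WT cisplatin peaks met only at their edges while both lay on the pemetrexed peak. The single site with a WT pemetrexed peak, on chromosome 17 (70839451 to 70840090), had 459 bp common to KO cisplatin, KO pemetrexed and WT pemetrexed, and no WT cisplatin peak overlapped it.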

How the data were processed

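γH2AX ChIP-seq of DLD1 cells was deposited as 4 lists of peak positions, 1 per drug-treated library, and groups follow the sample titles. Bowtie (no version) and MACS 1.4 were named, with build hg18, per the submitters' processing notes. The deposited lists hold a chromosome, start and end in bp per the file headers, with no height, fold or score, and the read depth is unknown. The sources used here do not give the control library, the threshold or any filter, nor whether both KO lists were called against 1 control. A deeper library or another control can change which peaks are called and how wide they are. Starts may count from 0 or 1, which could move each by 1 bp. The 2 untreated libraries were not analysed here.

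Lists held 4570 KO cisplatin, 5278 KO pemetrexed, 1807 WT cisplatin and 924 WT pemetrexed peaks, of which 4532, 5270, 1803 and 911 on chromosomes 1 to 22 were used. Overlaps were computed in Python 3.11.15, tested on simulated lists and checked against bedtools 2.31.1. Intervals are exact binomial (Clopper-Pearson), exact Poisson for densities, or order statistics for medians, at 95%, with scipy 1.17.1. Gaps and distances from 1 peak to another run between peak edges. Distances to chromosome ends and the distance bands use the centre of the cisplatin or WT peak. Chromosome spans run from the first to the last position covered by any list, and ends use the last position alone on chromosomes 13, 14, 15, 21 and 22. No test over samples was possible with 1 library per group. Sites and groupings were chosen with earlier results of these data known. The distance bands, pemetrexed width classes, near misses and joined regions were added after values had been seen.

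Named were the 5 widest sites, the 5 others with the widest partners, every site on a WT peak, the pemetrexed peaks with most sites (the 5 widest of 10 tied), the 5 windows with most sites, the 3 most isolated sites and the 3 peaks on each side of the limit.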

Additional observations from a re-analysis of the deposited data

How the results depend on the processing

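Alternatives covered 39 values of 6 results: 20 stayed within the 95% interval of the reported value and 19 moved out of it. In all 33 with a value for the other peaks the sites' point value stayed above theirs. Every alternative used the same lists and a related rule, so a kept direction was likely beforehand and is no independent support. With pemetrexed peaks under 2 kb the interval of the sites' median width (798 to 880 bp) holds the others' median, and without chromosomes 16, 17, 19 and 22 the WT cisplatin overlap was 1.81% of sites (0.374 to 5.19%), an interval that holds the others' 0.461%. The share of KO cisplatin peaks counted as shared (7.37%) was 3.11% when at least 50% of both peaks had to overlap, 20.3% with gaps of up to 10 kb, 6.20% by centre, 4.57% with pemetrexed peaks under 2 kb alone, 4.85% without chromosomes 16, 17, 19 and 22, and 8.55% with peaks within 10 kb joined. The median width of the sites was 855 bp with gaps of up to 10 kb (others 801), 844 bp with pemetrexed peaks under 2 kb (others 812) and 951.5 bp with peaks joined (others 816.5). The share near chromosome ends was 34.8% with 50% of both peaks (others 18.1%), 35.3% with pemetrexed peaks under 2 kb (others 17.8%), 30.1% without the 4 chromosomes (others 15.1%) and 50.6% within 10 Mb (others 27.1%). The share with another KO cisplatin peak close by was 78.0% with 50% of both peaks (others 56.3%), 79.5% without the 4 chromosomes (others 49.3%), 80.5% with peaks joined (others 48.2%), 99.7% within 1 Mb (others 93.7%) and 32.3% within 10 kb (others 14.4%). With a gap of up to 10 kb to a WT cisplatin peak, 8.08% of sites counted (others 4.98%). A stricter peak score could not be applied, as the lists used hold none. No paired analysis was possible because a group had 1 library and no replicate number. Depth is unknown, so a peak missing from a list may have gone uncalled there.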
